A study of Homo sapiens with 5 samples.

Results

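The human cells of grafted brain organoids were compared with the cells of the organoids from which such grafts are made, through the summed RNA of each library. A cell was counted as human when its barcode held over 500 unique molecular identifiers (UMIs, 1 for each captured RNA molecule), over 500 genes and a share of mitochondrial UMIs under 0.15 in the counts against the human reference. A barcode from a graft also had to hold over 80% human UMIs in the counts against a combined human and mouse reference. These rules kept 34405 of 42435 barcodes, of which 29505 came from grafts and 4900 from the organoids. No rule used the level of any gene compared below, apart from the mitochondrial share.

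All organoids were made from AAVS-ChR2-EYFP H9, 1 line of human embryonic stem cells that carries a light-gated channel and a yellow fluorescent protein. Group D0, labelled hBOs, was 1 library of organoids at day 42 of culture, the stage at which organoids were implanted. The grafts, labelled GBOs, were 4 libraries, each from organoids that had stayed in the hippocampus (HIP) or prefrontal cortex (PFC) of immunodeficient SCID mice (SCID-Beige in the study's results) (6 to 8 weeks old when allocated) for 2 or 4 months post transplantation (MPT): HIP_2MPT, HIP_4MPT, PFC_2MPT and PFC_4MPT. Tissue that fluoresced was dissected for them. Values of the 4 graft libraries are given in this order throughout. The labels name neither the mouse of a cell nor the sex of the hosts, and organoids or animals were pooled within a library. Each graft library was the only one of its site and stage. The spread between graft libraries may therefore hold site, stage and technical differences, which cannot be told apart. D0 had no replicate, was dissociated with TrypLE instead of Trypsin-EDTA, and was counted with an earlier Cell Ranger release and another gene annotation. Age, host, dissociation and counting therefore cannot be told apart in any difference between grafts and D0, and 32732 genes that both annotations list were compared.

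Organoids grown from pluripotent cells go through early steps of cortical development: radial glia, the dividing stem cells of the developing brain, give rise to deep-layer neurons first, then to upper-layer neurons, and later to astrocytes and oligodendrocyte precursors. Cells in culture are fed with glucose-rich medium and have no blood supply, and oxygen reaches the inside of an organoid only by diffusion. Low oxygen stabilizes the transcription factor HIF-1, which switches on glucose transporters, glycolytic enzymes, VEGFA and other targets. A loaded endoplasmic reticulum and a shortage of amino acids act through further stress programmes, the unfolded protein response and the integrated stress response.

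D0 was sequenced the deepest, with 56367102 UMIs in human cells and a median of 9842 per cell, against 11192237 to 21459173 UMIs and medians of 1253 to 2759 per cell in grafts. After thinning to 1000 UMIs, graft cells held a median of 649 to 692 genes and D0 cells 608. Libraries shared 6 to 20 barcodes with each other, at most 0.289% of the smaller library. By marker gates on thinned cells, 26.7% of D0 cells and 87.9, 55.5, 74.7 and 60.7% of graft cells were neurons, and 46.2% of D0 cells against 4.98, 26.6, 17.2 and 20% of graft cells were progenitors or glia. Choroid plexus cells, the epithelium that makes cerebrospinal fluid, made up 11.1% of D0 and at most 0.208% of any graft. The labelled tissue was present in every library: the 6 neural identity markers summed to 2712 CPM (UMIs per 1000000 UMIs of a library, after scaling by TMM, the trimmed mean of M values) in D0 and 2860 to 5385 CPM in grafts. Mesenchymal markers summed to 28.6 and 15.1 to 30.5 CPM, endothelial to 21.8 and 4.804 to 10.3 CPM, microglial and blood to 19.3 and 2.03 to 7.50 CPM, epithelial to 73.1 and 21.0 to 27.1 CPM, and the pluripotency genes POU5F1 and NANOG together to under 1 CPM everywhere. Members of a set went apart. CLDN5 held most of the endothelial sum of D0 (21.3 CPM) and AIF1 most of the microglial and blood sum (16.4 CPM). DCN (1.94 CPM in D0, 4.8 to 22.3 CPM in grafts) and EPCAM (10.5 CPM in D0, 19.6 to 26 CPM in grafts) were higher in every graft. PECAM1, CDH5 and CDH1 were too, at 1.33 CPM at most, whereas COL1A1, LUM, PDGFRB, KRT8 and KRT18 were lower in every graft. C1QA, a defining microglial gene, was at 0 in all 5 libraries. The part of these cells in the differences below was not tested, except through the gates. Because whole libraries were summed, fewer cells of a type and less RNA per cell cannot be told apart, and the gates were used to repeat each comparison within neurons and within progenitors or glia, of which HIP_2MPT held 331 cells.

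Grafts and D0 differed across much of the transcriptome. Of 19077 genes tested with edgeR, 45.1% passed an adjusted p of 0.05 and are referred to as called: 4869 (25.5%) were higher and 3729 (19.5%) lower in grafts. At least 2-fold changes made up 24.4% (higher) and 15.6% (lower), and all 4 graft libraries lay above D0 for 40.6% of genes and below it for 38.1%. The fit assumed that D0 varies as graft libraries do, since an exact permutation of 4 libraries against 1 cannot give a p under 0.2. In simulated counts the test found 46 of 100 genes changed 4-fold and 0 of 100 changed 2-fold, and it also called 6 unchanged genes. No other gene was changed there, so the adjustment was stricter than in the data and these shares do not carry over. A gene without a call may still have changed. Each SE and SD below treats the 4 graft libraries, which differ in site or stage, as replicates. An SE is the size of the log2 change divided by the square root of the F statistic of its test. It therefore restates the test and is no separate measure of spread. Without TMM scaling, the median log2 change of all genes moved from 0.09 to 0.44 and the calls to 5778 higher and 2240 lower. Below, the median of a gene list is the median over its tested members of the log2 ratio of a graft library to D0 (CPM + 1), given as the mean ± SD of the 4 libraries. For all genes it was 0.040 ± 0.024. In the gene lists, no called member had graft libraries on both sides of D0. A lack of overlap therefore adds nothing to a call. Counts of called members are to be read against the 25.5% higher and 19.5% lower of all genes.

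Long genes were called higher in grafts far more often than short ones. Of 1033 genes over 300 kb, 64.5% were called higher and 3.39% lower, while of genes of 5 to 20 kb 18.6% were higher and 25.1% lower. Single-exon genes under 5 kb had 7.55% higher and 18.1% lower calls. Genes over 300 kb took 1.56% of the UMIs of D0 and 7.87, 9.78, 8.34 and 6.44% of those of the grafts. Long noncoding RNAs were called higher in 52.5% of 4211 cases and lower in 5.82%. Reads from introns are counted by some settings of the counting software, and whether intronic reads were counted in either group is not given in the sources used here. Several families and single genes are therefore also given after a smooth trend on gene length was removed from the log2 changes. Values without this mention are not adjusted for length.

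**Figure D1:**
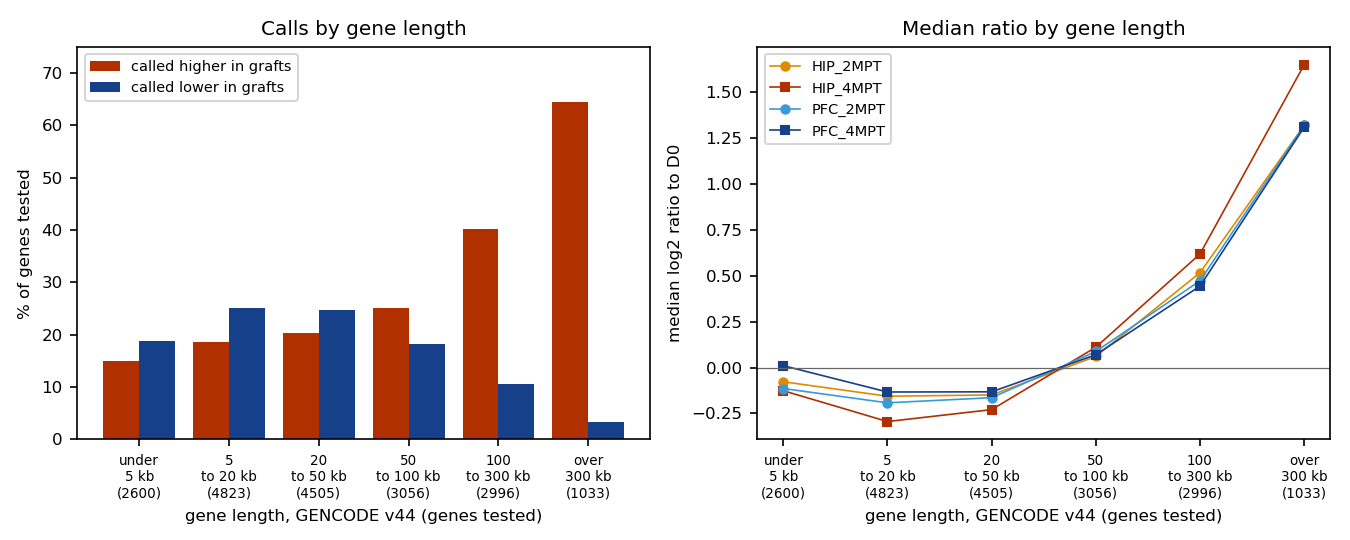
Left, percentage of tested genes called higher (red) or lower (blue) in grafts, by gene length. Right, median log2 ratio of each graft library to D0 in the same length classes, with the number of genes under each class. From 5 kb upwards the share called higher grows with length to 64.5% over 300 kb, and the 4 graft libraries follow 1 course.

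The 10 called genes with the largest rise, at least 50 CPM in grafts and at least 20 UMIs in every library were mostly long. Genes with fewer UMIs in D0 were left out by this rule, and larger fitted rises occurred over all genes tested. UNC5D, a netrin receptor of migrating cortical neurons, was at 3.32 CPM in D0 and 343, 648, 748 and 404 CPM in the grafts (log2 change 7.33 ± 0.71 (SE), adjusted p = 0.000595). KCND2, a pore subunit of the A-type potassium current, was at 2.09 CPM in D0 and 270.2, 441, 293 and 274 CPM in the grafts (log2 change 7.25 ± 0.52 (SE), adjusted p = 0.000315). In both genes every graft library lay far above D0. The other members were DSCAM, an adhesion molecule of neurites (2.15 CPM in D0, 169 to 370.1 CPM in grafts), DPYD, which degrades pyrimidines (0.818 CPM in D0, 51.1 to 189.7 CPM in grafts), and the noncoding RNAs MIR99AHG (13.7 CPM in D0, 1463 to 3051 CPM in grafts), LINC02315 (1.16 CPM in D0, 241 to 508 CPM in grafts), AL157778.1 (0.495 CPM in D0, 69.4 to 142 CPM in grafts), AL589740.1 (2.39 CPM in D0, 238 to 2421 CPM in grafts) and DGCR9 (0.969 CPM in D0, 80.8 to 109 CPM in grafts). ATP6V0C, a proton pump subunit at chr16:2513952-2520218 on the plus strand of GRCh38, went from 0.56 CPM to 273 to 341 CPM. It overlaps a gene that only 1 of the annotations lists, as do DPYD and DSCAM, and whether reads of such genes were assigned differently in the groups was not tested. Across all genes, 2140 shared genes had such an overlap and took 6.59% of the UMIs of D0 and 9.32 to 10.1% of those of grafts.

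The 10 genes with the largest fall at 50 CPM or more in D0 and at least 20 UMIs in every library included several that respond to low oxygen or to stress. DDIT4, an inhibitor of mTOR signalling that low oxygen and other stresses induce, was at 722 CPM in D0 and 17.3, 21.2, 25.3 and 38.9 CPM in the grafts (log2 change -4.81 ± 0.36 (SE), adjusted p = 0.000344). STARD4, which carries cholesterol between membranes, was at 101 CPM in D0 and 4.08, 2.98, 4.76 and 3.44 CPM in the grafts (log2 change -4.74 ± 0.26 (SE), adjusted p = 0.000282). The others were the hormone precursor TRH (235 CPM in D0, 4.75 to 9.04 CPM in grafts), the calmodulin-binding peptide PCP4 (138 CPM in D0, 3.297 to 4.58 CPM in grafts), PDK1, SLC2A1, VEGFA and LDHA of the hypoxia and glycolysis lists, the chromatin protein HMGA2 and the early response gene IER3, all described below. For TRH the log2 change was -1.39 within neurons and -5.86 within progenitors or glia, against -5.22 in all cells.

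**Figure D2:**
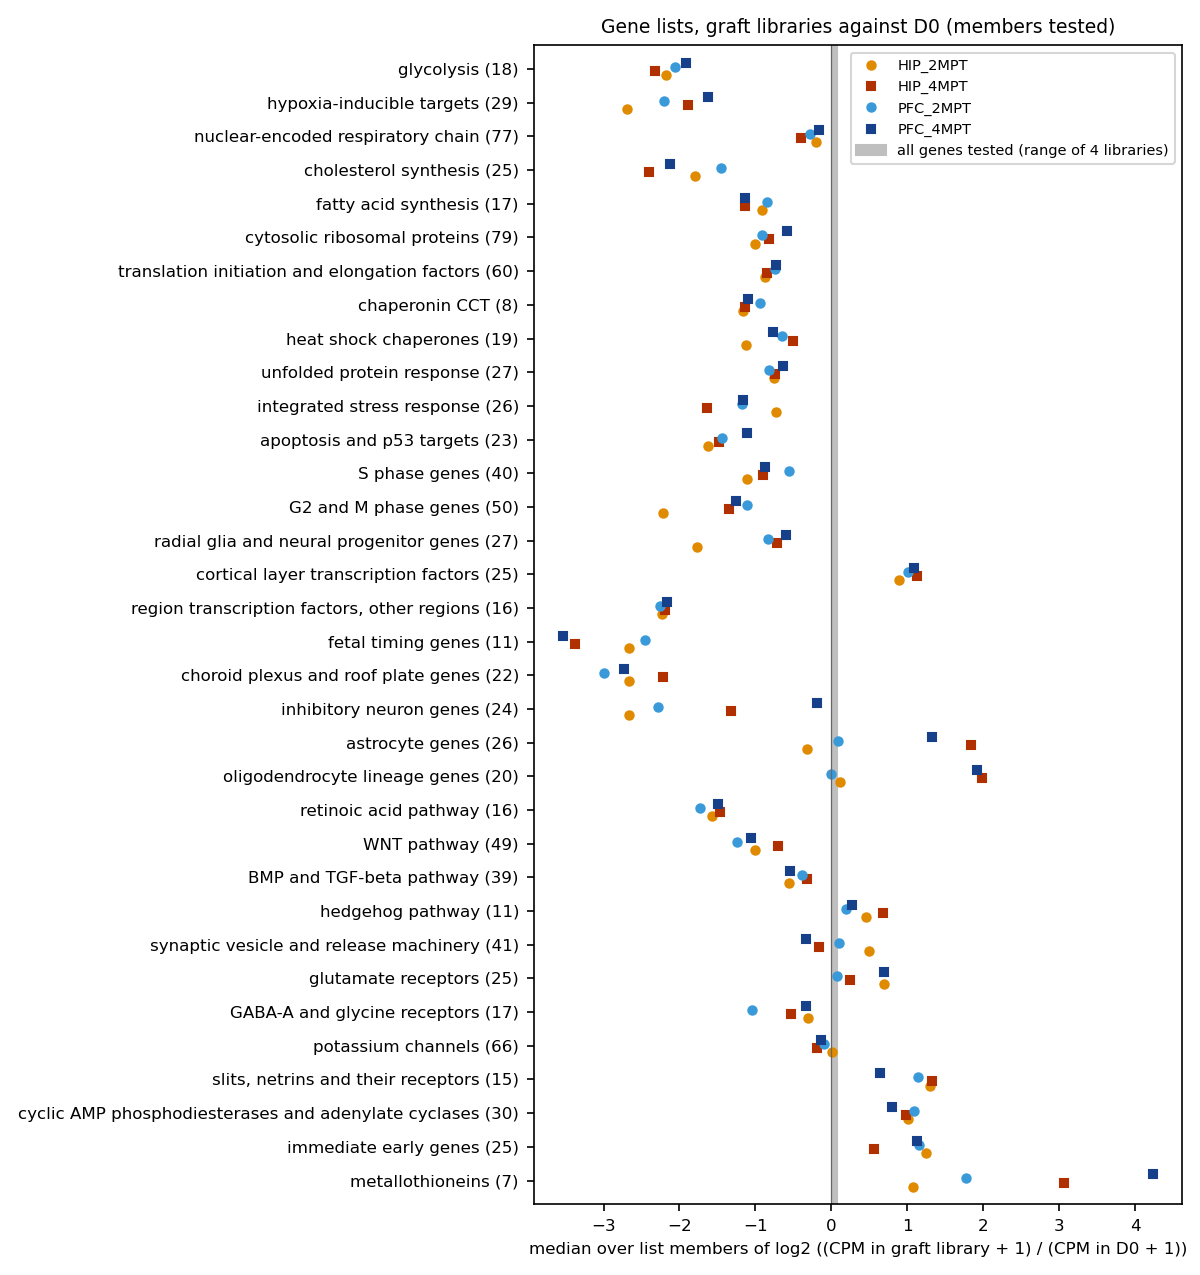
Median log2 ratio of each graft library to D0 over the tested members of 34 gene lists, with the number of members tested in brackets and the range of all genes tested as a grey band. Points left of 0 are lower in grafts. Glycolysis, hypoxia, fetal timing and choroid plexus lists lie below -1.5 in all 4 libraries, and the metallothioneins above 1.

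Enzymes of glycolysis, which turns glucose into pyruvate and lactate, were lower in grafts almost throughout. 16 of 18 members tested were called lower and 0 higher, where 19.5% of all genes were lower, and the list median was -2.12 ± 0.17. SLC2A1, the glucose transporter GLUT1, was at 207 CPM in D0 and 6, 7.03, 5.52 and 9.703 CPM in the grafts (log2 change -4.87 ± 0.28 (SE), adjusted p = 0.000282). LDHA, which makes lactate from pyruvate, was at 335 CPM in D0 and 11.9, 17.8, 15.5 and 16.03 CPM in the grafts (log2 change -4.45 ± 0.23 (SE), adjusted p = 0.000282), and it overlaps a gene that only 1 annotation lists. All 4 graft libraries fell below D0 in both genes, as in every list member called lower. The members with the most UMIs moved in the same direction. GAPDH was at 4280 CPM in D0 and 1202, 1292, 1383 and 1805 CPM in the grafts (log2 change -1.59 ± 0.26 (SE), adjusted p = 0.00342), and ENO1, the ubiquitous enolase, at 1143 CPM in D0 and 131, 148, 137 and 185 CPM in the grafts (log2 change -2.93 ± 0.23 (SE), adjusted p = 0.000386). PGK1, which yields the first ATP of the pathway, was at 574 CPM in D0 and 97.9, 108, 107 and 146 CPM in the grafts (log2 change -2.32 ± 0.24 (SE), adjusted p = 0.000721). GAPDH has many processed copies in the genome, so its count is uncertain. In all cells the aldolases were the exceptions, although ALDOC was called lower within neurons (log2 change -2.22). Within progenitors or glia the log2 change of ALDOC was 1.13, without a call. ALDOC, the aldolase of astrocytes and some neurons, was at 63.5 CPM in D0 and 24.2, 66.6, 16.7 and 55.6 CPM in the grafts (log2 change -0.64 ± 0.66 (SE), adjusted p = 0.457), so that the grafts at 4 MPT were near D0. ALDOA was at 49.95 CPM in D0 and 48.4, 31.7, 25.9 and 43.1 CPM in the grafts (log2 change -0.42 ± 0.35 (SE), adjusted p = 0.3498).

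The fall in glycolysis held within cell classes. Within neurons the list median was -1.99 ± 0.16 with 16 of 18 members lower, and within progenitors or glia it was -1.94 ± 0.23 with 15 of 18. Removing the length trend gave -2.13 ± 0.15 and leaving out TMM gave -1.77 ± 0.14.

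Targets of HIF-1 outside glycolysis were lower as well. 22 of 29 members tested were called lower and 0 higher, with a list median of -2.11 ± 0.46. VEGFA, the growth factor that draws in blood vessels, was at 217 CPM in D0 and 7.58, 7.03, 7.04 and 17.2 CPM in the grafts (log2 change -4.48 ± 0.44 (SE), adjusted p = 0.000612), and PFC_4MPT was the highest graft library. PDK1, a kinase that inhibits pyruvate dehydrogenase, was at 82.9 CPM in D0 and 2.25, 2.05, 1.78 and 3.74 CPM in the grafts (log2 change -5.08 ± 0.34 (SE), adjusted p = 0.000295). BNIP3, a receptor for the removal of mitochondria, was at 530.1 CPM in D0 and 42.1, 73.6, 49.5 and 109 CPM in the grafts (log2 change -2.95 ± 0.42 (SE), adjusted p = 0.00202), and the lactate exporter SLC16A3 was at 49.8 CPM in D0 and 2.25, 1.29, 2.73 and 5.18 CPM in the grafts (log2 change -4.12 ± 0.53 (SE), adjusted p = 0.00139). Of the proteins that set the response itself, HIF1A was at 79.2 CPM in D0 and 46.8, 53.1, 51.99 and 45.5 CPM in the grafts (log2 change -0.68 ± 0.21 (SE), adjusted p = 0.0341), a smaller change than those of VEGFA and PDK1, and its adjusted p was 0.0798 without PFC_2MPT, 0.0904 without PFC_4MPT and 0.274 without TMM (edgeR). EGLN1 and EGLN3, prolyl hydroxylases that mark HIF-1 for destruction and are themselves induced, were at 76.7 CPM in D0, 23.5 to 26.2 CPM in grafts and 40.2 CPM in D0, 3.58 to 10.1 CPM in grafts, both called lower. The collagen-modifying enzymes P4HA1 (219.5 CPM in D0, 21.3 to 65.2 CPM in grafts) and PLOD2 (31.1 CPM in D0, 2.33 to 8.45 CPM in grafts) were also called lower. The members without a call were CA12, ADM, NDRG1, SLC2A3, PFKFB3, PFKFB4 and CITED2. CITED2, a competitor of HIF-1 for its co-activator, had the highest graft levels of these, at 75.8 CPM in D0 and 51.7, 49.4, 66.6 and 91.2 CPM in the grafts (log2 change -0.23 ± 0.35 (SE), adjusted p = 0.626). Within neurons 19 of 29 members were lower and 1 higher, with a median of -1.59 ± 0.26, and within progenitors or glia 22 were lower, with a median of -2.04 ± 0.36.

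HIF-1 binds DNA at sites with the core ACGTG. The core was searched on both strands in the 250 bases before the start of each gene, in RefSeq promoters of GRCh38.p14. It was present in 18.7% of 27305 promoters and in 22.3% of those of the genes tested here, in 11 of 19 promoters of hypoxia members called lower (57.9%) and in 6 of 16 promoters of glycolysis members called lower (37.5%). Over all members tested it was in 12 of 24 hypoxia promoters (50%) and 8 of 18 glycolysis promoters (44.4%), so that members without a call carried it too. The last 100 bases before the start are shown for 4 members called lower, picked after their values were seen for a core in this window, with the core and its reverse complement in capitals. A match describes these letters and is not a measured binding site.
LDHA (chr11:18394463-18394562, plus strand): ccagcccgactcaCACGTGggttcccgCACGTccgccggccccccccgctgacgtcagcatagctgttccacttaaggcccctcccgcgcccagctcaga
HK2 (chr2:74834027-74834126, plus strand): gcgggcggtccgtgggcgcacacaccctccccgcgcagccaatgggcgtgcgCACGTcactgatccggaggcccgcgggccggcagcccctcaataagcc
FAM162A (chr3:122384082-122384181, plus strand): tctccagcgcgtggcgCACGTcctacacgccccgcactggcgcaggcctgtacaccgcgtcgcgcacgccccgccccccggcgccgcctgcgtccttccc
AK4 (chr1:65147452-65147551, plus strand): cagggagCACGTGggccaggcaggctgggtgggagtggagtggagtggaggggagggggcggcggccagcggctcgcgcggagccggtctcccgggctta
LDHA had 5 matches in 250 bases, 3 of them in the part shown, where overlapping matches on the strands form CACGTG. HK2, the hexokinase that low oxygen induces, was at 65.04 CPM in D0 and 7.58, 1.74, 5.199 and 4.34 CPM in the grafts (log2 change -3.81 ± 0.53 (SE), adjusted p = 0.00184). FAM162A, a mitochondrial protein induced by HIF-1, was at 343 CPM in D0 and 52.1, 61.4, 40.4 and 67.4 CPM in the grafts (log2 change -2.63 ± 0.27 (SE), adjusted p = 0.000672). AK4, a mitochondrial adenylate kinase, was at 54.96 CPM in D0 and 2.83, 15.5, 6.53 and 11.7 CPM in the grafts (log2 change -2.58 ± 0.63 (SE), adjusted p = 0.0149). In each of these genes the highest graft library stayed below D0.

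**Figure D3:**
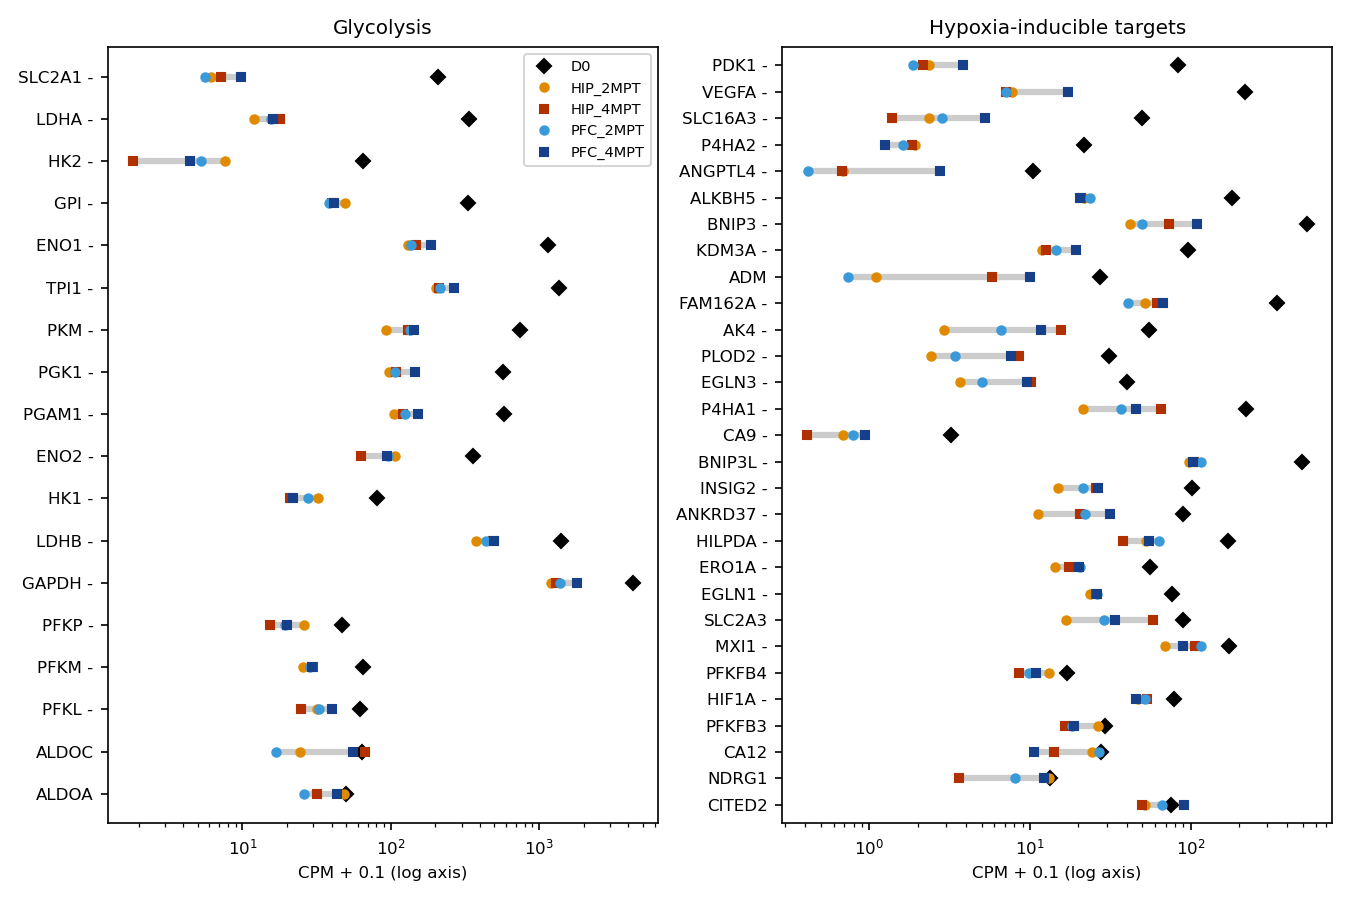
CPM + 0.1 on a log axis of every tested member of the glycolysis list (left) and of the hypoxia-inducible list (right) in the 5 libraries, sorted by log2 change, with a grey bar over the range of the 4 graft libraries. A minus after a symbol marks a gene called lower in grafts. The D0 diamonds lie to the right of the graft range in all rows but ALDOC (left) and CITED2 (right).

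The study had named stress genes for D0, and these were higher there in all cases, so they are no independent evidence of a direction. Besides HIF1A, VEGFA, PGK1 and HSPA5, they included ALKBH5, an RNA demethylase induced by low oxygen, at 180.4 CPM in D0 and 21.6, 20.8, 23.7 and 20.3 CPM in the grafts (log2 change -3.07 ± 0.19 (SE), adjusted p = 0.000282). ARCN1, a coat protein of vesicles between Golgi and endoplasmic reticulum, was at 45.6 CPM in D0 and 12, 17.3, 15.3 and 20.4 CPM in the grafts (log2 change -1.49 ± 0.29 (SE), adjusted p = 0.00624). GORASP2, which links Golgi stacks, was at 79.9 CPM in D0, 29.4 to 31.04 CPM in grafts and ATF6B, a sensor of unfolded proteins, at 57.8 CPM in D0, 32.3 to 36.7 CPM in grafts, both called lower. For ATF6B the adjusted p was 0.0746 without PFC_2MPT, 0.0583 without PFC_4MPT and 0.191 without TMM (edgeR).

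The respiratory chain changed less than glycolysis. Of 77 nuclear-encoded subunits, 19 were called lower and 5 higher, against 19.5% and 25.5% of all genes, and the list median of -0.26 ± 0.11 became 0.085 ± 0.095 without TMM, which reversed its sign. ATP5F1A, the alpha subunit of ATP synthase, was at 507 CPM in D0 and 139.9, 129.9, 154 and 145 CPM in the grafts (log2 change -1.83 ± 0.20 (SE), adjusted p = 0.0007704), and CYCS, cytochrome c, at 321 CPM in D0 and 119, 93.8, 127 and 131 CPM in the grafts (log2 change -1.45 ± 0.23 (SE), adjusted p = 0.00312). ATP5F1E, a small subunit of the same ATP synthase, was at 920 CPM in D0 and 996, 721, 828 and 856 CPM in the grafts (log2 change -0.11 ± 0.25 (SE), adjusted p = 0.739). NDUFA11 and NDUFA13 of complex I were called higher (190 CPM in D0, 353 to 445 CPM in grafts and 269 CPM in D0, 449.9 to 652 CPM in grafts), and both overlap a gene of only 1 annotation. The 13 mRNAs made in mitochondria took 3.99% of the UMIs of D0 and 3.9, 3.1, 2.46 and 7.25% of those of grafts, so that PFC_4MPT alone lay above D0. MT-ATP8 was the only 1 of them called (16 CPM in D0, 475 to 1585 CPM in grafts, log2 change 5.82 ± 0.85 (SE), adjusted p = 0.00211). It overlaps MT-ATP6, and how reads of the overlap were counted in each group is not given in the sources used here.

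Genes of cholesterol synthesis were lower in grafts along most of the pathway. 20 of 25 members tested were called lower and 1 higher, with a list median of -1.94 ± 0.41. HMGCS1, the first committed step towards mevalonate, was at 594 CPM in D0 and 67.3, 81.2, 129 and 68.3 CPM in the grafts (log2 change -2.78 ± 0.33 (SE), adjusted p = 0.00107). DHCR7, which makes cholesterol in the last step of one branch, was at 87.3 CPM in D0 and 10.2, 7.03, 14.1 and 10.7 CPM in the grafts (log2 change -3.06 ± 0.31 (SE), adjusted p = 0.000681). No graft library reached D0 in either of them. INSIG1, which holds the sterol sensor back, was also called lower (124 CPM in D0, 17.2 to 44.6 CPM in grafts), as was SQLE, which acts on squalene (343 CPM in D0, 47.8 to 91.8 CPM in grafts). CYP51A1, which removes a methyl group from lanosterol, went the other way, at 14.6 CPM in D0 and 45.9, 80.7, 87.4 and 66.7 CPM in the grafts (log2 change 2.27 ± 0.42 (SE), adjusted p = 0.00503). SREBF2, the transcription factor that drives the pathway, was at 115 CPM in D0 and 138, 60.2, 123 and 74 CPM in the grafts (log2 change -0.22 ± 0.45 (SE), adjusted p = 0.712), and the grafts lay on both sides of D0. PMVK, MVD and TM7SF2 were not called either. The median was -2.18 ± 0.46 within neurons and -1.28 ± 0.32 within progenitors or glia, where 14 of 25 members were lower. The sterol response core TCACNCCAC was in 0 of 13 promoters of members called lower and in 0.875% of all promoters, in the same 250 bases. Over all members tested it was in 1 of 18 (5.56%). The core is too rare for 0 of 13 to tell these promoters from others.

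Fatty acid synthesis was split. 9 of 17 members tested were called lower and 3 higher, with a median of -1.01 ± 0.15. SCD, which adds the first double bond to saturated fatty acids, was at 426 CPM in D0 and 38.4, 27.2, 34.4 and 35.5 CPM in the grafts (log2 change -3.65 ± 0.22 (SE), adjusted p = 0.000282), and the desaturase FADS1 at 255 CPM in D0 and 31.3, 23.9, 42.4 and 26.6 CPM in the grafts (log2 change -3.04 ± 0.29 (SE), adjusted p = 0.000571). ACACA, which commits acetyl-CoA to the pathway, was at 22.9 CPM in D0 and 129.7, 189, 136 and 145 CPM in the grafts (log2 change 2.71 ± 0.33 (SE), adjusted p = 0.00115), and at 322 kb its change after the length trend was 1.11. ELOVL2, an elongase of very long fatty acids that astrocytes use, was at 11.8 CPM in D0 and 25.9, 56.8, 36.5 and 43.2 CPM in the grafts (log2 change 1.79 ± 0.45 (SE), adjusted p = 0.01604). SCD5, the desaturase of brain, was at 70.3 CPM in D0, 54.02 to 90.5 CPM in grafts and had no call (adjusted p = 0.888). Among enzymes of serine, glycine and folate metabolism 4 of 13 members tested were called lower and 0 higher, with a median of -0.64 ± 0.22. TYMS, which makes thymidylate for DNA, was at 124 CPM in D0 and 18.7, 32.3, 51.3 and 50.1 CPM in the grafts (log2 change -1.70 ± 0.46 (SE), adjusted p = 0.0204), and SHMT2 at 65.6 CPM in D0 and 19.8, 18.5, 26.1 and 23.9 CPM in the grafts (log2 change -1.57 ± 0.24 (SE), adjusted p = 0.00262). The call of TYMS was lost within neurons (log2 change -0.81) and within progenitors or glia (-1.12).

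Genes of protein folding that were called were all lower in grafts. All 8 subunits of the chaperonin CCT, the ring that folds actin and tubulin, were called lower, with a median of -1.09 ± 0.099, and their graft levels did not overlap D0. CCT6A was at 311 CPM in D0 and 95.5, 91.1, 108 and 90.7 CPM in the grafts (log2 change -1.69 ± 0.20 (SE), adjusted p = 0.00105). Among heat shock chaperones 7 of 19 members tested were called lower and 0 higher (median -0.76 ± 0.27). HSP90AA1, the most abundant member without a call, was at 1940 CPM in D0 and 939, 1364, 1214 and 832 CPM in the grafts (log2 change -0.84 ± 0.30 (SE), adjusted p = 0.0578). In the unfolded protein response 12 of 27 members tested were called lower and 0 higher (median -0.74 ± 0.074). P4HB, which forms disulfide bonds in the endoplasmic reticulum, was at 201 CPM in D0 and 43.8, 37.8, 47.5 and 46.6 CPM in the grafts (log2 change -2.20 ± 0.20 (SE), adjusted p = 0.000547), and CANX, a chaperone of glycoproteins, at 259.6 CPM in D0 and 60.8, 77.9, 61.2 and 72.6 CPM in the grafts (log2 change -1.93 ± 0.22 (SE), adjusted p = 0.000876). HSPA5, the chaperone BiP, was at 348 CPM in D0 and 112, 151, 164 and 135 CPM in the grafts (log2 change -1.31 ± 0.24 (SE), adjusted p = 0.00535). Its change was -0.53 within neurons and -0.62 within progenitors or glia, neither of which passed (adjusted p = 0.189 and 0.129, edgeR). HSP90B1, its partner, was at 386 CPM in D0 and 184, 352, 218 and 194 CPM in the grafts (log2 change -0.70 ± 0.36 (SE), adjusted p = 0.1497).

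The ER stress response element, CCAAT and CCACG set 9 bases apart, was in 0.0806% of all promoters and in 3 of 12 promoters of unfolded protein response members called lower, those of HSPA5, CALR and CANX. Over all members tested it was in 6 of 26 (23.1%). It is shown in capitals in the last 100 bases before the start of HSPA5.
HSPA5 (chr9:125241344-125241443, minus strand): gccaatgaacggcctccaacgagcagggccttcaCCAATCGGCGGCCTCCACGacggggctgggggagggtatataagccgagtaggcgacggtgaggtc

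Genes of the integrated stress response, which adjusts amino acid supply, had 10 lower and 2 higher calls among 26 members, with a median of -1.18 ± 0.38. ASNS, which makes asparagine, was at 52.8 CPM in D0 and 6.17, 2.31, 3.49 and 3.07 CPM in the grafts (log2 change -3.83 ± 0.42 (SE), adjusted p = 0.000818). NUPR1, a stress-induced chromatin factor, was at 0.883 CPM in D0 and 23.8, 14.5, 7.799 and 9.52 CPM in the grafts (log2 change 3.97 ± 0.78 (SE), adjusted p = 0.00655). ALDH1L2, a mitochondrial folate enzyme, was at 5.88 CPM in D0 and 17.8, 13.2, 12.6 and 9.82 CPM in the grafts (log2 change 1.18 ± 0.40 (SE), adjusted p = 0.0473). Its call was lost under several settings, with an adjusted p of 0.0635 with D0 thinned, 0.05602 with no filter on low counts, 0.23 within neurons and 0.0954 within progenitors or glia (edgeR). ATF4, the transcription factor at the centre of this response, was at 206 CPM in D0 and 151, 53.6, 92.9 and 88.7 CPM in the grafts (log2 change -1.09 ± 0.45 (SE), adjusted p = 0.0817).

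Targets of p53 and genes of apoptosis were mostly lower. 14 of 23 members tested were called lower and 1 higher, with a median of -1.41 ± 0.22. CDKN1A, the p53 target p21 that halts the cell cycle, was at 93.4 CPM in D0 and 0.583, 0.222, 0.634 and 0.964 CPM in the grafts (log2 change -7.31 ± 0.45 (SE), adjusted p = 0.000282). GDF15, a secreted stress signal, was at 20.5 CPM in D0 and 0.167, 0.4003, 0.254 and 0.362 CPM in the grafts (log2 change -6.04 ± 0.40 (SE), adjusted p = 0.000295). Both were close to absent in every graft library. SESN1, a p53 target that restrains mTOR, was at 15.8 CPM in D0 and 38.7, 38.7, 47.4 and 31.6 CPM in the grafts (log2 change 1.31 ± 0.30 (SE), adjusted p = 0.0113), and BAX, which permeabilizes mitochondria, was at 111 CPM in D0 and 103, 72.2, 78.6 and 71.1 CPM in the grafts (log2 change -0.45 ± 0.27 (SE), adjusted p = 0.201). The list median was -0.87 ± 0.25 within neurons and -1.48 ± 0.38 within progenitors or glia. The change of CDKN1A was -6.60 and -6.86 in these gates.

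Most calls among genes of protein synthesis were lower. Cytosolic ribosomal proteins took 25.9% of the UMIs of D0 and 16.8, 18.3, 16.8 and 19.9% of those of grafts. 45 of 79 members tested were called lower and 2 higher, with a median of -0.83 ± 0.18. RPL13A was at 4715 CPM in D0 and 908, 853, 829 and 841 CPM in the grafts (log2 change -2.46 ± 0.20 (SE), adjusted p = 0.000386), and RPS20 at 1688 CPM in D0 and 325, 402, 282 and 308 CPM in the grafts (log2 change -2.36 ± 0.23 (SE), adjusted p = 0.000631). RPL10 was the most abundant without a call, at 6845 CPM in D0 and 5068, 5601, 5197 and 6924 CPM in the grafts (log2 change -0.26 ± 0.27 (SE), adjusted p = 0.454). RPL17 and RPS26 were called higher (322 CPM in D0, 1211 to 1453 CPM in grafts and 452 CPM in D0, 657 to 931 CPM in grafts). RPL17 overlaps a gene of 1 annotation, and ribosomal protein genes share reads with many pseudogenes, so single members are uncertain. Within neurons the median was -0.21 ± 0.20 with 18 members lower, and within progenitors or glia it was -0.99 ± 0.18 with 56 lower.

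Among initiation and elongation factors 29 of 60 members tested were called lower and 4 higher (median -0.80 ± 0.076). EIF3A and EIF3E, subunits of the complex that brings mRNA to the ribosome, were at 324 CPM in D0 and 65.3, 51.3, 76.5 and 43.7 CPM in the grafts and at 965 CPM in D0 against 155, 172, 180.2 and 202 CPM in the grafts, with log2 changes of -2.45 and -2.45. EEF1G was called higher (32.7 CPM in D0, 632 to 791 CPM in grafts) and overlaps a gene of 1 annotation. EIF4G3, a scaffold of the cap complex in a gene of 371 kb, was called higher (log2 change 1.31), and the value after the length trend was -0.47. PABPC1, which binds poly(A) tails, was at 746 CPM in D0, 331 to 771 CPM in grafts with no call (adjusted p = 0.252). In ribosome biogenesis 11 of 29 members tested were called lower and 1 higher (median -0.36 ± 0.11). NPM1, a major nucleolar protein, was at 1648 CPM in D0 and 391, 412, 445 and 463 CPM in the grafts (log2 change -1.95 ± 0.20 (SE), adjusted p = 0.000718), and FBL, which methylates ribosomal RNA, at 236 CPM in D0 and 83.1, 64.1, 67.02 and 69.9 CPM in the grafts (log2 change -1.73 ± 0.21 (SE), adjusted p = 0.00119). Proteasome subunits were mixed, with 12 lower and 6 higher of 37 and a median of -0.49 ± 0.11, and so were lysosome and autophagy genes, with 13 lower and 3 higher of 35 (median -0.42 ± 0.14).

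Calls among cell cycle genes were mostly lower in all cells, whereas within neurons more of them were higher than lower. Within progenitors or glia, lower calls exceeded the share of all genes tested there for G2 and M phase. For S phase genes they were about that share. Over all genes tested within neurons, 4262 of 17273 were called higher and 2832 lower. The higher calls of cell cycle genes within neurons were about that share or below it. Over all genes tested within progenitors or glia, 3450 of 15185 were called higher and 2627 lower. 41 of 50 genes of G2 and M phase were called lower and 0 higher, with a median of -1.48 ± 0.50. Within progenitors or glia 23 were lower (median -1.12 ± 0.49), whereas within neurons 1 was lower and 4 were higher (median 0.28 ± 0.22). PLK1, a kinase that drives mitosis, was at 75.3 CPM in D0 and 7.5, 10.5, 13.3 and 14.4 CPM in the grafts (log2 change -2.72 ± 0.31 (SE), adjusted p = 0.000967), and NEK2, which splits centrosomes, at 59.4 CPM in D0 and 5.17, 7.16, 9.45 and 7.83 CPM in the grafts (log2 change -3 ± 0.30 (SE), adjusted p = 0.000631). NUSAP1, a spindle protein, was at 131 CPM in D0 and 53.7, 107, 129 and 95.6 CPM in the grafts (log2 change -0.44 ± 0.41 (SE), adjusted p = 0.406). Among S phase genes 20 of 40 members tested were called lower and 3 higher (median -0.86 ± 0.23), with 6 lower and 2 higher within progenitors or glia, and 1 lower and 9 higher within neurons. CDT1 and MCM4, which load the replicative helicase, were at 48.9 CPM in D0 and 7.83, 10.5, 14.96 and 12.5 CPM in the grafts and at 45.1 CPM in D0 against 12.3, 12.8, 13.9 and 11.3 CPM in the grafts, with log2 changes of -2.09 and -1.84. POLA1 and PRIM2, subunits of the enzyme that starts DNA strands, were called higher (11.03 CPM in D0, 34.8 to 52.2 CPM in grafts and 17.3 CPM in D0, 34.3 to 47.1 CPM in grafts). Both genes exceed 300 kb, and after the length trend their changes were 0.49 and -0.32. Among inhibitors of cyclin-dependent kinases and exit genes 4 were higher and 2 lower of 13, CDKN1A among the latter.

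**Figure D4:**
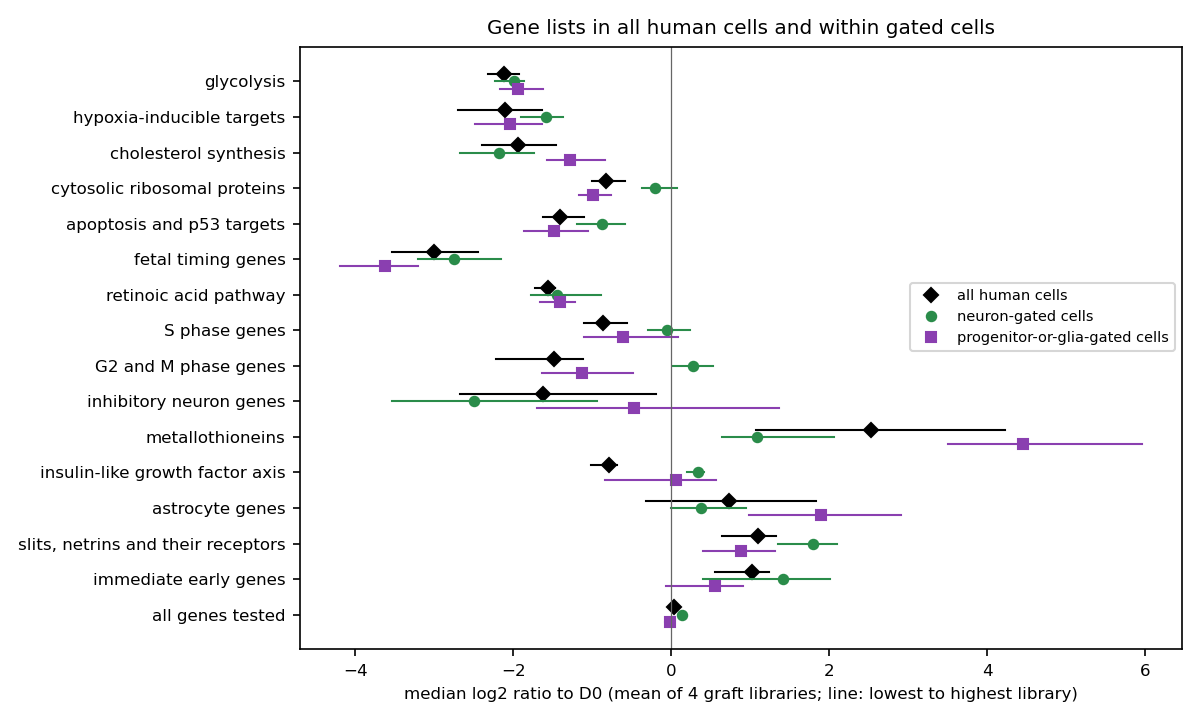
Mean of the 4 graft libraries' median log2 ratios to D0 for 16 gene lists in all human cells (black), within neuron-gated cells (green) and within progenitor-or-glia-gated cells (purple), with lines from the lowest to the highest library. Glycolysis, hypoxia, cholesterol and fetal timing lists lie left of 0 in all 3 sets of cells, and the phases of the cell cycle lie near 0 in neurons.

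Radial glia genes moved apart from each other. 10 of 27 members tested were called lower and 2 higher, with a median of -0.98 ± 0.53, of -0.43 ± 0.20 within progenitors or glia and of -0.052 ± 0.42 within neurons. VIM, the intermediate filament of radial glia and a gene of the gate, was at 4679 CPM in D0 and 226, 596, 652 and 455 CPM in the grafts (log2 change -3.28 ± 0.44 (SE), adjusted p = 0.00162). TNC, a matrix protein of outer radial glia, was at 5.19 CPM in D0 and 48.4, 118, 81.9 and 122 CPM in the grafts (log2 change 4.16 ± 0.63 (SE), adjusted p = 0.00246), and the glutamate transporter SLC1A3, also of the gate, at 35.97 CPM in D0 and 102, 211, 158 and 179 CPM in the grafts (log2 change 2.18 ± 0.43 (SE), adjusted p = 0.00683). HES5, a Notch effector, was at 456 CPM in D0 and 33.6, 937, 1095 and 1528 CPM in the grafts (log2 change 0.98 ± 1.45 (SE), adjusted p = 0.607), with HIP_2MPT, the library with the smallest share of progenitors, far below the others. Among genes of intermediate progenitors and newborn neurons, INSM1 (43.9 CPM in D0, 121 to 247 CPM in grafts) and the opioid precursor PENK (2.15 CPM in D0, 19.6 to 57.2 CPM in grafts) were called higher, and TBR1 and NEUROD1 (47.5 CPM in D0, 17.6 to 28.4 CPM in grafts) lower, of 19 tested.

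Transcription factors that specify cortical layers were called higher more often than lower. 13 of 25 were called higher and 3 lower, against 25.5% and 19.5% of all genes, with a median of 1.03 ± 0.10. NFIX, a factor of late progenitors and glia, was at 6.53 CPM in D0 and 449, 309, 329 and 232 CPM in the grafts (log2 change 5.66 ± 0.52 (SE), adjusted p = 0.000522). CUX2, of the upper layers, was at 5.298 CPM in D0 and 141, 136, 181 and 121 CPM in the grafts (log2 change 4.77 ± 0.38 (SE), adjusted p = 0.000386), and FOXP2, of layer 6, at 5.13 CPM in D0 and 20.5, 18.2, 28.5 and 15.01 CPM in the grafts (log2 change 2.002 ± 0.43 (SE), adjusted p = 0.00894). The lowest graft library was several-fold above D0 in NFIX and CUX2. FEZF2, the selector of deep-layer neurons that project out of the cortex, went down, at 209 CPM in D0 and 43.7, 10.99, 20.4 and 6.69 CPM in the grafts (log2 change -3.36 ± 0.73 (SE), adjusted p = 0.009297). TBR1, of layer 6, was at 73.4 CPM in D0 and 33.5, 29.4, 41.3 and 37 CPM in the grafts (log2 change -1.06 ± 0.24 (SE), adjusted p = 0.0111) and LHX2, a factor of cortical progenitors, at 457 CPM in D0 and 261, 178, 255 and 194 CPM in the grafts (log2 change -1.04 ± 0.27 (SE), adjusted p = 0.0178). BCL11B, of deep-layer output neurons, was at 77.5 CPM in D0 and 46.3, 42.8, 61.6 and 49.4 CPM in the grafts (log2 change -0.63 ± 0.25 (SE), adjusted p = 0.0774). Within neurons the list median was 0.71 ± 0.11, with 10 higher and 4 lower. The log2 change of FOXP2 within neurons was 0.14, without a call. BCL11B, not called in all cells, was called lower within neurons (log2 change -1.18) and within progenitors or glia (-1.88). Many of these genes are long, and the median after the length trend was 0.17 ± 0.28, while NFIX had a value of 5.34 and FOXP2, a long gene, one of -0.41. CUX2, FOXP2, LHX2 and BCL11B were named after their values were seen.

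Genes of early fetal timing were among the most strongly reduced. LIN28B, its targets and the IGF2BP proteins form a programme that is high in early embryonic tissue and shut down as let-7 microRNAs accumulate. 8 of 11 members tested were called lower and 0 higher, with a median of -3.01 ± 0.53, of -2.75 ± 0.51 within neurons and of -3.62 ± 0.49 within progenitors or glia. HMGA2, a chromatin protein of young stem cells, was at 101 CPM in D0 and 3.5, 1.51, 6.79 and 1.39 CPM in the grafts (log2 change -4.95 ± 0.65 (SE), adjusted p = 0.00149). IGF2BP1, which stabilizes fetal mRNAs, was at 59.8 CPM in D0 and 3.83, 0.133, 2.73 and 0.181 CPM in the grafts (log2 change -5.19 ± 1.11 (SE), adjusted p = 0.009002). In both, the libraries at 4 MPT were lower than those at 2 MPT, a difference that was not tested. IGFBP2, which binds insulin-like growth factors, was at 2627 CPM in D0 and 48.2, 129, 189 and 192 CPM in the grafts (log2 change -4.24 ± 0.55 (SE), adjusted p = 0.00142), and HMGA1 at 369.7 CPM in D0 and 57.3, 22.6, 51.04 and 29.4 CPM in the grafts (log2 change -3.21 ± 0.42 (SE), adjusted p = 0.00151). DLK1, an imprinted gene, had 203 CPM in D0 and at most 1.09 CPM in grafts, with no UMI in HIP_2MPT. LIN28B was at 12.7 CPM in D0 and 4.17, 0.311, 1.902 and 0.181 CPM in the grafts (log2 change -3.004 ± 1.11 (SE), adjusted p = 0.0612), CDKN1C at 118 CPM in D0 and 15.9, 72.2, 26.4 and 74.2 CPM in the grafts (log2 change -1.32 ± 0.71 (SE), adjusted p = 0.164) and IGF2BP3 at 69.9 CPM in D0 and 77.9, 51.1, 82.5 and 42.7 CPM in the grafts (log2 change -0.14 ± 0.38 (SE), adjusted p = 0.7902). HMGA2 and MEG3 overlap genes of 1 annotation. HMGA1, DLK1, LIN28B and CDKN1C were picked after their values were seen.

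**Figure D5:**
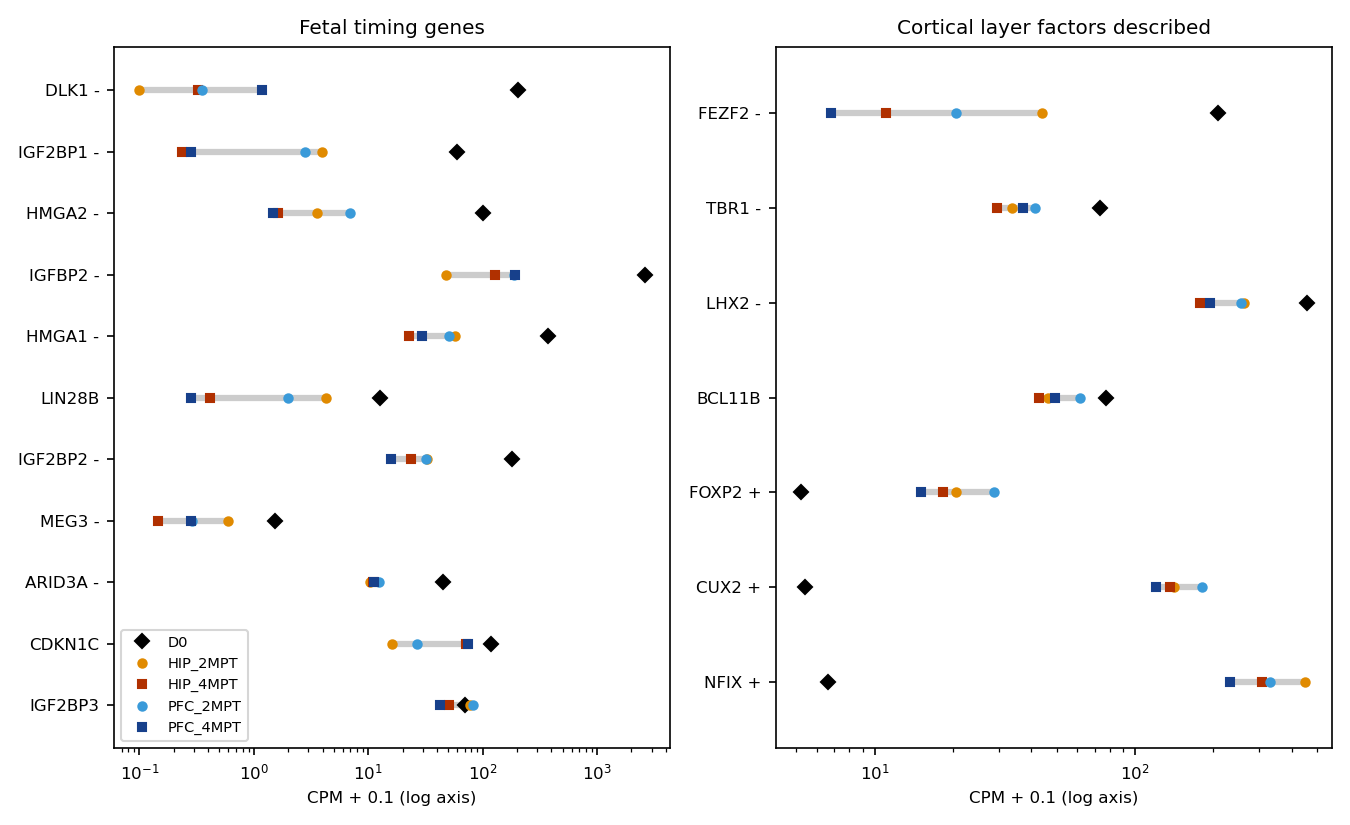
CPM + 0.1 on a log axis of the tested members of the fetal timing list (left) and of the 7 members of the cortical layer list described here (right) in the 5 libraries, sorted by log2 change, with a grey bar over the range of the grafts. A plus or minus after a symbol marks a gene called higher or lower. NFIX and CUX2 lie at least 1 order of magnitude right of the D0 diamond, and DLK1, IGF2BP1 and HMGA2 at least 1 order left of it.

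Calls among factors listed for other brain regions and genes of the choroid plexus were all lower. Whether D0 held cells of such regions was not tested. A gene could pass the filter on low counts through D0 alone, the deepest library. The median log2 ratio of the region factors was -2.21 ± 0.04 over the 16 tested and -0.11 over all 34 detected. Of 37 region factors matched, 16 passed the filter, of which 10 were called lower and 0 higher. OTX2, of midbrain and choroid plexus, was at 25.1 CPM in D0 and 0.25, 0.845, 0.1902 and 0.241 CPM in the grafts (log2 change -5.93 ± 0.59 (SE), adjusted p = 0.000636), and LHX1 at 11.2 CPM in D0 and 0.667, 0.801, 0.254 and 0.482 CPM in the grafts (log2 change -4.33 ± 0.49 (SE), adjusted p = 0.000886). TCF7L2, a factor of thalamus and of WNT signalling, was at 46.2 CPM in D0 and 9.33, 27.8, 11.2 and 21.1 CPM in the grafts (log2 change -1.41 ± 0.52 (SE), adjusted p = 0.0598). In the choroid plexus list 16 of 22 members tested were called lower and 0 higher, with a median of -2.65 ± 0.32 and, after choroid-gated cells were left out of all libraries, of -1.21 ± 0.20. TTR, the transthyretin of cerebrospinal fluid and a gene of the gate, was at 7362 CPM in D0 and 3, 0.445, 5.33 and 0.844 CPM in the grafts (log2 change -11.62 ± 0.97 (SE), adjusted p = 0.000432), and the serotonin receptor HTR2C at 68.2 CPM in D0 and 0.5, 0.534, 0.0634 and 0.241 CPM in the grafts (log2 change -7.63 ± 0.52 (SE), adjusted p = 0.000295). BMP7 was at 66.6 CPM in D0 and 6.17, 38.7, 18.8 and 22.7 CPM in the grafts (log2 change -1.62 ± 0.67 (SE), adjusted p = 0.0875).

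Glial lineage genes differed more between graft libraries than most lists. The astrocyte list had a median of 0.73 ± 1.02, with -0.32, 1.84, 0.086 and 1.33 in the 4 libraries, so that both libraries at 4 MPT were the highest. 4 of its 26 members were called higher and 5 lower, against 25.5% and 19.5% of all genes. Within progenitors or glia the median was 1.90 ± 1.004, with 15 of 26 members higher and 4 lower. GFAP, the filament of mature astrocytes, was at 0.129 CPM in D0 and 16.1, 30.7, 29.99 and 41.3 CPM in the grafts (log2 change 7.78 ± 0.80 (SE), adjusted p = 0.000686). HEPACAM, an adhesion molecule of astrocyte endfeet, had 1 UMI in D0 and 2.67, 35.2, 10.02 and 34.5 CPM in grafts, and was called higher. CST3, a secreted protease inhibitor, was at 180.4 CPM in D0 and 296, 1679, 297 and 1299 CPM in the grafts (log2 change 2.31 ± 1.12 (SE), adjusted p = 0.131). FGFR3 and ID3, which radial glia also express, were called lower (101 CPM in D0, 11.98 to 20.8 CPM in grafts and 349 CPM in D0, 11.4 to 34.6 CPM in grafts). In the oligodendrocyte lineage 3 of 20 were called higher and 1 lower, with medians of 0.12, 1.99, 0.00 and 1.91. OLIG1, which precursors of oligodendrocytes need, was at 0.237 CPM in D0 and 3.92, 422, 20.7 and 222 CPM in the grafts (log2 change 9.43 ± 3.34 (SE), adjusted p = 0.0533), a wide spread among grafts. LHFPL3, a gene of these precursors, was at 0.0431 CPM in D0 and 4.92, 41.9, 2.79 and 34.8 CPM in the grafts and was called higher.

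Calls among inhibitory neuron genes were all lower, with 10 of 24 called lower and 0 higher. The median was -1.62 ± 1.11 in all cells, -2.50 ± 1.26 within neurons and -0.47 ± 1.38 within progenitors or glia. In all cells it was -2.67, -1.32, -2.29 and -0.19 in the 4 libraries. The list summed to 627.5 CPM in D0 and 106.7, 542.7, 210.8 and 1002 CPM in the grafts, so that PFC_4MPT lay above D0. CALB2, calretinin, was at 42.3 CPM in D0 and 2.08, 0.979, 0.507 and 9.34 CPM in the grafts (log2 change -3.71 ± 1.06 (SE), adjusted p = 0.0257), and SP8, a factor of interneurons from the caudal eminence, at 23.8 CPM in D0 and 0.5, 2.18, 2.92 and 8.92 CPM in the grafts (log2 change -2.70 ± 0.93 (SE), adjusted p = 0.0491). PFC_4MPT had the highest graft levels of CALB2 and SP8.

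Among secreted signals, the WNT, retinoic acid and BMP pathways had more lower than higher calls. In the WNT pathway 22 of 49 members tested were called lower and 3 higher (median -0.999 ± 0.22, and -0.69 over all 57 detected). RSPO2 and RSPO3, secreted amplifiers of WNT that the cortical hem and roof plate make, were at 59.96 CPM in D0 and 0.667, 2.18, 0.1902 and 1.15 CPM in the grafts and at 90.98 CPM in D0 against 2.08, 2.89, 0.571 and 0.181 CPM in the grafts, with log2 changes of -5.77 and -5.96. CTNNB1, beta-catenin, was at 119 CPM in D0 and 119, 249, 248 and 313 CPM in the grafts (log2 change 0.96 ± 0.49 (SE), adjusted p = 0.146). The WNT median was -0.48 ± 0.10 within neurons and -0.68 ± 0.095 within progenitors or glia. In the retinoic acid pathway 9 of 16 members tested were called lower and 1 higher (median -1.56 ± 0.11, and -1.14 over all 19 detected). The cellular binding proteins moved most. CRABP2 was at 160.2 CPM in D0 and 0.833, 0.534, 0.698 and 1.27 CPM in the grafts (log2 change -7.60 ± 0.33 (SE), adjusted p = 0.000255), and CRABP1 at 281 CPM in D0 and 8.17, 0.0445, 0.951 and 0.181 CPM in the grafts (log2 change -7.04 ± 1.40 (SE), adjusted p = 0.00668), with HIP_2MPT the highest graft.

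In the BMP and TGF-beta pathway 12 of 39 members tested were called lower and 6 higher (median -0.46 ± 0.12). The ligand BMP2 was at 12.4 CPM in D0 and 0.167, 1.16, 0.254 and 1.15 CPM in the grafts (log2 change -4.12 ± 0.73 (SE), adjusted p = 0.00438). The targets ID3 and ID1 were at 349 CPM in D0 and 12.3, 11.4, 34.6 and 23.5 CPM in the grafts and at 252 CPM in D0 against 14.6, 78.9, 31.8 and 107 CPM in the grafts, with log2 changes of -4.09 and -2.11, of which only ID3 passed the test (adjusted p = 0.00115 and for ID1 0.0624). The receptors BMPR2 (42.6 CPM in D0, 175 to 249 CPM in grafts) and BMPR1B (4.05 CPM in D0, 9.08 to 42.7 CPM in grafts) were called higher. In the Notch pathway 7 of 26 members tested were called lower and 2 higher (median -0.60 ± 0.40), and the effectors HEY1 (152 CPM in D0 and 12.8, 17.8, 19.3 and 16.99 CPM in the grafts, log2 change -3.18 ± 0.24 (SE), adjusted p = 0.000347) and HEY2 (22.1 CPM in D0, 0.583 to 2.14 CPM in grafts) were lower, while HES6, which opposes HES1 in newborn neurons, was higher (321 CPM in D0, 479 to 801 CPM in grafts). The FGF pathway had 7 lower and 4 higher of 28 (median -0.50 ± 0.27, and -0.29 over all 36 detected). The hedgehog pathway had 4 higher and 1 lower of 11 (median 0.40 ± 0.21, and 0.0017 over all 14 detected). Among the former was HHIP, a target that traps the ligand (0.452 CPM in D0, 9.45 to 24.4 CPM in grafts). BOC, a co-receptor, was lower in all cells (60.2 CPM in D0, 16.5 to 37.3 CPM in grafts, log2 change -1.32), and its value within neurons was 0.35. GLI3, which represses the pathway, was at 98.2 CPM in D0, 41.2 to 102 CPM in grafts (adjusted p = 0.399).

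The insulin-like growth factor axis had 6 lower and 3 higher calls among 15 members (median -0.79 ± 0.16), and its median was 0.34 ± 0.096 within neurons and 0.062 ± 0.64 within progenitors or glia, which reversed its sign. The receptors IGF1R and INSR were higher (50.7 CPM in D0, 106 to 137 CPM in grafts and 46.2 CPM in D0, 74.8 to 119 CPM in grafts), although after the length trend their changes were -0.37 and 0.16. IRS2, which relays their signal, was lower (58.8 CPM in D0, 23.1 to 30.2 CPM in grafts). IGFBP5 was at 156 CPM in D0 and 8.5, 96.5, 7.04 and 41.7 CPM in the grafts (log2 change -2.02 ± 1.11 (SE), adjusted p = 0.175). Phosphodiesterases and cyclases of cyclic AMP had 17 of 30 members higher and 1 lower, with a median of 0.97 ± 0.12 and of 0.45 ± 0.081 after the length trend. PDE4D, a gene of over 1 Mb, was at 10.5 CPM in D0 and 547, 269.6, 547 and 240 CPM in the grafts (log2 change 5.26 ± 0.72 (SE), adjusted p = 0.00171), with 1.63 after the length trend. PDE4A, a short relative, was at 13.6 CPM in D0 and 3, 4.14, 1.97 and 4.16 CPM in the grafts (log2 change -2.03 ± 0.42 (SE), adjusted p = 0.00797).

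Synaptic genes had calls in both directions, where 25.5% of all genes were called higher and 19.5% lower. The release machinery had 8 higher and 8 lower of 41 (median 0.026 ± 0.36), and within neurons the median was -0.63 ± 0.19. RIMS1, a scaffold of the release site, was at 4.72 CPM in D0 and 39.9, 32.4, 40.8 and 30.98 CPM in the grafts (log2 change 2.93 ± 0.32 (SE), adjusted p = 0.000809), and RAB3B, a GTPase on vesicles, at 27.7 CPM in D0 and 1.33, 1.201, 2.09 and 1.39 CPM in the grafts (log2 change -4.20 ± 0.34 (SE), adjusted p = 0.000406). After the length trend the change of RIMS1 was 0.73. SYT1, the calcium sensor of release, was at 232 CPM in D0 and 529, 243, 469 and 199 CPM in the grafts (log2 change 0.63 ± 0.56 (SE), adjusted p = 0.381). Postsynaptic scaffolds had 8 higher and 2 lower of 22 (median 0.095 ± 0.37, and -0.35 ± 0.47 after the length trend), with 8 higher and 7 lower within neurons. DLG2, which anchors glutamate receptors, was at 11.03 CPM in D0 and 329.7, 673, 399 and 406 CPM in the grafts (log2 change 5.36 ± 0.56 (SE), adjusted p = 0.000718), and after the length trend its change was 1.30. Synaptic adhesion genes had 10 higher and 11 lower of 46, and their median of 0.23 ± 0.33 was -0.64 ± 0.16 after the length trend. PTPRS, a receptor phosphatase of the presynaptic side, was at 11.7 CPM in D0 and 564, 397, 501 and 467 CPM in the grafts (log2 change 5.37 ± 0.38 (SE), adjusted p = 0.000297), while SLITRK1 and SLITRK5, short genes for adhesion proteins, were lower (13.8 CPM in D0, 0.127 to 1.45 CPM in grafts and 39.1 CPM in D0, 2.41 to 5.03 CPM in grafts).

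Receptors and channels had calls in both directions as well, against 25.5% higher and 19.5% lower among all genes. Glutamate receptors had 9 higher and 1 lower of 25 (median 0.43 ± 0.32, after the length trend -0.13 ± 0.14). GRIK1, a kainate receptor, was at 0.323 CPM in D0 and 12.5, 77.1, 15.2 and 32.9 CPM in the grafts (log2 change 6.72 ± 1.46 (SE), adjusted p = 0.00941), and GRM7, a presynaptic metabotropic receptor, at 1.29 CPM in D0 and 41.5, 132, 56.1 and 50.9 CPM in the grafts (log2 change 5.76 ± 0.89 (SE), adjusted p = 0.00262), highest in HIP_4MPT. After the length trend the changes of GRIK1 and GRM7 were 4.83 and 2.74. GABA-A and glycine receptors had 7 lower and 4 higher of 17 tested. The median was -0.55 ± 0.34 over these but 0.106 over all 23 detected, so its sign depended on which members passed the filter on low counts. The glycine receptor subunits GLRA2 (5.32 CPM in D0, 12.96 to 48.1 CPM in grafts) and GLRB (6.91 CPM in D0, 19.7 to 25.5 CPM in grafts) were called higher. The call of GLRA2 was lost under several settings, among them D0 thinned, neurons alone and progenitors or glia alone. That of GLRB was lost within progenitors or glia. Sodium and calcium channels had 10 higher and 4 lower of 35, with the N-type calcium channel CACNA1B at 7.09 CPM in D0 and 123, 74.7, 104 and 50.9 CPM in the grafts (log2 change 3.63 ± 0.57 (SE), adjusted p = 0.00282) and SCN1A at 0.905 CPM in D0, 5.5 to 14.04 CPM in grafts, called higher. After the length trend the changes of CACNA1B and SCN1A were 2.37 and 2.72. Potassium channels had 13 higher and 18 lower of 66, with median gene lengths of 401 kb and 31.6 kb. KCNH7 was at 5.32 CPM in D0 and 264, 372, 270.2 and 288 CPM in the grafts (log2 change 5.81 ± 0.40 (SE), adjusted p = 0.000295), and its relative KCNH2 at 22.2 CPM in D0 and 4, 2.45, 3.87 and 3.495 CPM in the grafts (log2 change -2.69 ± 0.33 (SE), adjusted p = 0.00121). After the length trend their changes were 3.73 and -2.47.

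Axon guidance families changed member by member. Slits, netrins and their receptors had 7 higher and 1 lower of 15 (median 1.11 ± 0.32, after the length trend 0.41 ± 0.18), with UNC5B at 21.7 CPM in D0, 0.698 to 2.67 CPM in grafts, called lower, against the rise of UNC5D. Semaphorins and their receptors had 6 higher and 6 lower of 29, with a median of -0.19 after the length trend. SEMA3C, a secreted guidance cue, was at 5.58 CPM in D0 and 329, 203, 328 and 195 CPM in the grafts (log2 change 5.56 ± 0.53 (SE), adjusted p = 0.000589). Its receptor subunits went apart, with NRP1 at 10.7 CPM in D0 and 265, 99.9, 201 and 108 CPM in the grafts (log2 change 3.98 ± 0.71 (SE), adjusted p = 0.00448) and NRP2 at 46.03 CPM in D0 and 2.92, 4.89, 2.03 and 3.92 CPM in the grafts (log2 change -3.73 ± 0.39 (SE), adjusted p = 0.000718). Ephrins and their receptors had 8 lower and 4 higher of 21 (median -0.75 ± 0.27). EPHA3 was at 13.9 CPM in D0 and 438, 551, 750.4 and 421 CPM in the grafts (log2 change 5.28 ± 0.51 (SE), adjusted p = 0.000589), and EPHA2 at 19.9 CPM in D0 and 0.25, 0.08896, 0.127 and 0.181 CPM in the grafts (log2 change -6.97 ± 0.43 (SE), adjusted p = 0.000282).

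Immediate early genes, which neurons switch on after activity and cells in general after dissociation, had 10 higher and 4 lower calls of 25, with a median of 1.02 ± 0.31, of 1.42 ± 0.70 within neurons and of 0.55 ± 0.42 within progenitors or glia. FOS was at 489 CPM in D0 and 1504, 1414, 2348 and 2689 CPM in the grafts (log2 change 2.03 ± 0.46 (SE), adjusted p = 0.0111), EGR1 at 347 CPM in D0 and 1064, 703, 1365 and 1202 CPM in the grafts (log2 change 1.64 ± 0.40 (SE), adjusted p = 0.01502) and IER2 at 299.6 CPM in D0 and 1961, 1237, 1968 and 2005 CPM in the grafts (log2 change 2.58 ± 0.39 (SE), adjusted p = 0.00234). IER3 and KLF6 went the other way, at 113 CPM in D0 and 8.33, 1.07, 2.41 and 3.32 CPM in the grafts and at 126 CPM in D0 against 47.8, 25.98, 41.8 and 28.9 CPM in the grafts, with log2 changes of -4.94 and -1.80. ARC and NPAS4, which respond to neuronal activity, were at 59.2 CPM in D0 and 199, 85, 384 and 233 CPM in the grafts (adjusted p = 0.0703) and at 7.09 CPM in D0 against 41.8, 12.01, 87.8 and 51.9 CPM in the grafts (adjusted p = 0.0559), neither past the threshold. JUND was at 935 CPM in D0 and 344, 563, 1062 and 1053 CPM in the grafts (log2 change -0.31 ± 0.57 (SE), adjusted p = 0.683). The dissociation enzyme differed between D0 and grafts, and its part in these values cannot be told apart from that of the graft. ARC and NPAS4 were called higher under several other settings. Among these were grafts at 2 and 4 MPT fitted as separate groups, DESeq2, and HIP_4MPT left out. FOS, EGR1, ARC and NPAS4 were named after their values were seen.

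Calls among metallothioneins, small proteins that bind zinc and copper, were all higher, with 3 of 7 called higher, none called lower and all 4 grafts above D0 in 6. Over all genes tested, 40.6% had all 4 grafts above D0. The medians of the metallothioneins, 1.07, 3.06, 1.78 and 4.23, were higher in both libraries at 4 MPT. MT2A was at 26.8 CPM in D0 and 76, 231, 232 and 521 CPM in the grafts (log2 change 3.30 ± 1.02 (SE), adjusted p = 0.0331, and 0.0522 without HIP_4MPT), and MT3, of astrocytes and neurons, at 26.3 CPM in D0 and 24.8, 356, 42.6 and 313 CPM in the grafts (log2 change 2.81 ± 1.58 (SE), adjusted p = 0.183). MT1M had no UMI in D0 and 2, 15.97, 3.74 and 56.1 CPM in grafts. Within progenitors or glia 6 of 7 were higher (median 4.45 ± 1.08), against a median of 1.09 ± 0.66 within neurons. Members of this family resemble each other in sequence, so their reads may be shared.

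Some families of RNA and chromatin regulators also differed. Proteins of the hnRNP and SR families had 17 lower and 1 higher of 34 (median -0.68 ± 0.11). PTBP1, which blocks neuronal exons in progenitors, was at 121 CPM in D0 and 31.5, 21.8, 30.1 and 30.4 CPM in the grafts (log2 change -2.09 ± 0.24 (SE), adjusted p = 0.000922), and its change within neurons was -1.32. Neuronal splicing regulators had 9 higher and 8 lower of 30. NOVA1 was at 70.9 CPM in D0 and 334, 359.9, 262 and 360.2 CPM in the grafts (log2 change 2.21 ± 0.30 (SE), adjusted p = 0.0017), and CELF4, at 323 kb, at 111 CPM in D0 and 30.3, 24.6, 21.9 and 31.2 CPM in the grafts (log2 change -2.04 ± 0.24 (SE), adjusted p = 0.00105), against the trend of long genes. Of nuclear noncoding RNAs, NEAT1, the scaffold of paraspeckles, was at 202 CPM in D0 and 25.8, 50.3, 15.98 and 23.5 CPM in the grafts (log2 change -2.80 ± 0.47 (SE), adjusted p = 0.00359), with -0.71 within neurons and -0.64 within progenitors or glia, neither of which passed (adjusted p = 0.248 and 0.258, edgeR). KCNQ1OT1, an imprinted RNA, was at 357 CPM in D0 and 44, 88.4, 47.1 and 27.7 CPM in the grafts (log2 change -2.78 ± 0.47 (SE), adjusted p = 0.00359). MALAT1 took 4.66% of the UMIs of D0 and 3.41, 4.79, 4.08 and 2.68% of those of grafts, with no call. Polycomb and DNA methylation genes had 11 lower and 1 higher of 29 (median -0.58 ± 0.11). BAF remodelling subunits had 5 lower and 6 higher of 23, and ZNF genes 119 higher and 59 lower of 474. For higher calls both were near the 25.5% of all genes, and 19.5% of all genes were lower.

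Immune genes had no common direction, where 25.5% of all genes were called higher and 19.5% lower. The interferon response had 5 higher and 7 lower of 23. The related genes IFI44 and IFI44L went apart, with IFI44 at 9.63 CPM in D0 and 54.3, 76.6, 47.3 and 69.3 CPM in the grafts (log2 change 2.69 ± 0.37 (SE), adjusted p = 0.001802) and IFI44L at 81.7 CPM in D0 and 3.08, 11.03, 8.05 and 8.92 CPM in the grafts (log2 change -3.38 ± 0.47 (SE), adjusted p = 0.00181). DDX58, a sensor of viral RNA, was called higher (1.4 CPM in D0, 8.02 to 13.3 CPM in grafts) and IFITM2 lower (29.5 CPM in D0, 2.42 to 4.72 CPM in grafts). Genes for antigen presentation by HLA class I had 3 higher and 4 lower of 13. Of the matrix and cytoskeleton families, collagens had 13 lower and 7 higher of 38 (median -0.64 ± 0.13, and -0.45 over all 44 detected). Laminins, integrins and proteoglycans had 12 lower and 7 higher of 46, and cadherins and protocadherins 7 higher and 4 lower of 28. Tubulins had 6 higher and 4 lower of 17, motors of axonal transport 7 lower and 2 higher of 22, and neurotrophins and their receptors 2 lower and 0 higher of 12.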

How the data were processed

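The authors deposited UMI counts per gene and cell barcode of 5 droplet libraries (Chromium 3' chemistry), made with Cell Ranger (3.1 in the submitters' processing notes, 3.1.0 in the file header of D0 and 5.0.0 in those of grafts) against GRCh38, with a second set of graft counts against a joint reference of human and mouse. The counts were not normalized, and whether intronic reads were counted is not given in the sources used here. Here, UMIs of human cells were summed per library, as the cells of a library are not replicates, and the 4 GBOs were tested as 1 group against D0 with edgeR 4.0.16 (filterByExpr, TMM, quasi-likelihood F test, Benjamini-Hochberg adjustment over all genes tested) in R 4.3.3, with DESeq2 1.42.0 as an alternative. The cell-level test of the study was not used. CPM are scaled by TMM, and list medians use a pseudocount of 1 CPM. Gates were set on cells thinned to 1000 UMIs. Choroid plexus cells held at least 3 UMIs of its genes, and other cells were neurons, or progenitors or glia, with at least 3 UMIs of that gate's genes and over 2 times those of the other (no gate otherwise). Doublets within 1 species were not sought. Gene lengths and overlaps come from GENCODE v44, with a loess trend (span 0.3) for length, and promoters from RefSeq. Members and lists were chosen with earlier results of these data known. Named were 8 stress genes of the study, the 10 largest changes in each direction (at least 50 CPM in the higher group and 20 UMIs in every library), and in each list up to 2 called members in each direction and the most abundant member without a call (at least 10 CPM, no library at 0), besides members that a gate, a marker check or a small count needed. Other genes were named after their values were seen: BNIP3, SLC16A3, EGLN1, EGLN3, P4HA1, PLOD2, GAPDH, ENO1, ALDOA, HK2, FAM162A, AK4, HMGCS1, INSIG1, SQLE, MT1M and those marked in the text. On simulated counts of 18232 genes, 46 of 100 genes changed 4-fold, 0 of 100 changed 2-fold and 6 of 18032 unchanged genes were called. Depth was 11192237 to 56367102 UMIs per library. Alternatives were other tools, filters, scaling, cell filters, gates, pseudocount, the dual reference and thinned D0. Grafts at 2 and 4 MPT were also fitted as separate groups, and each graft library was left out in turn. Genes without annotation overlaps were an alternative added after the data had been seen. Mouse genes served only to tell species apart. Results of some genes are not reported here.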

Additional observations from a re-analysis of the deposited data

Results flagged for a closer look

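In a group of 4 libraries a value stands apart when its gap to the nearest other, divided by the whole range of the group, exceeds Dixon's critical value, which chance gives in about 1 of 20 groups. Among the grafts this was so for 3 of 70 gene lists and 11 of 189 named genes. Each ratio below is this gap over range.

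Of the lists, voltage-gated sodium and calcium channels had PFC_2MPT apart at a median log2 ratio to D0 of -0.16 (ratio 0.87). The abundant nuclear noncoding RNAs had PFC_4MPT apart at -1.05 (ratio 0.940), and the insulin-like growth factor axis had PFC_2MPT apart at -1.02 (ratio 0.846).

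PFC_4MPT was the highest graft for VEGFA, at 17.2 CPM (ratio 0.946), and for EEF1G, at 791 CPM (ratio 0.926). HIP_4MPT was the highest for KCND2, at 441 CPM (ratio 0.866), for GRM7, at 132 CPM (ratio 0.839), and for OTX2, at 0.845 CPM (ratio 0.909). It was the lowest for IER2, at 1237 CPM (ratio 0.943), and for PTBP1, at 21.8 CPM (ratio 0.852). HIP_2MPT was the highest for CRABP1, at 8.17 CPM (ratio 0.888), and the lowest for PRIM2, at 34.3 CPM (ratio 0.843), for EGLN1, at 23.5 CPM (ratio 0.855), and for IFITM2, at 2.42 CPM (ratio 0.889). In each of these genes all 4 grafts still lay on 1 side of D0, as they did above it for 40.6% and below it for 38.1% of all genes.

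In 4 lists both libraries at 2 MPT had a median on one side of 0 and both at 4 MPT on the other, and the difference was not tested. Synaptic vesicle and release genes were higher at 2 MPT (mean median at 2 MPT minus 4 MPT 0.545), whereas the difference was -0.562 for synaptic adhesion, -0.314 for cyclin-dependent kinase inhibitors and cell cycle exit, and -0.222 for laminins, integrins and proteoglycans.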

How the results depend on the processing

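With 1 library in D0 and 4 pooled graft libraries, 10479 of 19077 genes tested had no call, and such genes may still have changed. The count of genes called lower was 2240, and of those at least 2-fold lower 1808, without TMM. With any graft library left out, 4296 to 5213 genes were higher and 2788 to 4057 lower (at least 2-fold, 4191 to 4927 and 2431 to 3183). The other settings kept these counts within 1.5 times, DESeq2 with 5588 higher and 3759 lower. Of lists whose median lay over 2 SD from 0, the sign turned without TMM for the respiratory chain (0.085), within neurons for G2 and M phase genes (0.28) and the insulin-like growth factor axis (0.34), and within progenitors or glia for the latter (0.062) and for pluripotency genes (0.43). Lists closer to 0 turned too, among them synaptic adhesion (-0.64), release machinery (-0.42), postsynaptic scaffolds (-0.35), cadherins (-0.24) and glutamate receptors (-0.13) after the length trend, release machinery (-0.63) within neurons, BAF subunits (0.058) without TMM, and GABA-A receptors (0.16) and the Notch pathway (0.036) within progenitors or glia. Of the called genes named, log2 changes turned after the length trend for EIF4G3 (-0.47), PRIM2 (-0.32), IGF1R (-0.37) and FOXP2 (-0.41), and within neurons for BOC (0.35). Genes named without a call turned as well, such as SYT1 (-1.74 after the length trend) and NUSAP1 (1.16 within neurons, adjusted p = 0.0218, edgeR). Of 158 called genes named, 136 of 157 tested kept their call within neurons, 138 of 157 within progenitors or glia, 151 without TMM, 151 with D0 thinned to the smallest graft total and 149 to 157 when a graft library was left out. Calls were lost without HIP_2MPT for RPS26 (adjusted p = 0.0511, edgeR), and without HIP_4MPT for ALDH1L2 (0.0694), MT2A (0.0522), MT1M (0.05298), SP8 (0.0976) and BOC (0.0571). Without PFC_2MPT they were lost for HIF1A, ATF6B, RPS26, ALDH1L2, SP8, HES6, BOC, GLRA2 and INSR (adjusted p 0.0589 to 0.0896), and without PFC_4MPT for HIF1A, ATF6B, RPS26, HES6, BMPR1B and BOC (adjusted p 0.0519 to 0.0904). By DESeq2, CALB2 (0.0724) and SP8 (0.143) were not called. Within neurons OTX2 (log2 change -2.55) had no call. Calls were also gained. With grafts at 2 and 4 MPT fitted as separate groups, OLIG1, LIN28B, CST3, MT3, CDKN1C, IGFBP5, ARC and NPAS4 were called, among other genes. The cause of these shifts was not tested. No paired analysis was possible because D0 was 1 library and the labels match it with no graft library.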
